A study of Mus musculus with 8 samples.

Results

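Arl2bp, whose product is a binding partner of the small GTPase ARL2, and the GTPase genes Arl2 and Arl3 were described in intervertebral discs of mice with proteoglycan-induced spondylitis, an autoimmune inflammation of the spine. These 3 genes, of 18193 measured genes, were taken from the array through its annotation, and each probe set that names one of them alone was kept. That left 5 probe sets of 34945, with 2 for Arl2bp, 2 for Arl2 and 1 for Arl3. Arl2bp was chosen because its expression was far lower in immunized than in naive mice, and its partners were chosen for their binding to its product with earlier results known. The difference between immunized and naive samples is therefore given for these 3 genes as a description, without a test.

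The immunized group held 5 samples from female BALB/c mice that received cartilage proteoglycan (100 µg of protein) on days 0, 21 and 42, each time with dimethyldioctadecylammonium bromide (2 mg) as adjuvant. The naive group held 3 samples from female BALB/c mice matched for age, whose age is not stated. Each sample was RNA of 6 pooled lumbar discs, from levels L1 to L6, and the descriptions of immunized replicate 1 and naive replicate 3 each join 2 sample numbers. Because these are whole discs, fewer cells of a type and less RNA per cell cannot be told apart. The p-values given for other genes weigh the group difference against the spread between these samples. Batches such as scan dates were not analysed here.

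ARL2 and ARL3 are closely related members of the ARF-like branch of the RAS superfamily, which bind their partners when loaded with GTP. ARL2 takes part in the folding of tubulin and acts in mitochondria, whereas ARL3 releases lipid-modified cargo from carrier proteins inside the primary cilium. ARL2BP binds both GTPases in their GTP-bound form, has been placed at mitochondria, at the ciliary base and with nuclear STAT3, and is mutated in a form of human retinal degeneration. Chondrocytes and other disc cells carry a primary cilium.

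The 3 genes lie on the mouse assembly GRCm38.p6 in RefSeq at chr8:94666600-94674457 (Arl2bp), chr19:6134389-6141137 (Arl2) and chr19:46531109-46573182 (Arl3). RefSeq promoter windows were found for all 3 genes, and the 250 bases before the transcript start are shown on the gene's strand because Arl3 and probe set 1422549_at of Arl2 were lowest in the same immunized samples. Capitals mark CACGTG, the E-box bound by clock and other basic helix-loop-helix factors.
Arl2bp, chr8:94666841-94667090, plus strand: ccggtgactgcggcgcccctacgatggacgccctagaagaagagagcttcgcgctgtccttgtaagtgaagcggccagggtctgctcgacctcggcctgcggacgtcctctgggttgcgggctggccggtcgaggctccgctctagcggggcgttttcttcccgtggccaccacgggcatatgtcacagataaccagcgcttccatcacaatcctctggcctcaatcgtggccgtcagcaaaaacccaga
Arl2, chr19:6141138-6141387, minus strand: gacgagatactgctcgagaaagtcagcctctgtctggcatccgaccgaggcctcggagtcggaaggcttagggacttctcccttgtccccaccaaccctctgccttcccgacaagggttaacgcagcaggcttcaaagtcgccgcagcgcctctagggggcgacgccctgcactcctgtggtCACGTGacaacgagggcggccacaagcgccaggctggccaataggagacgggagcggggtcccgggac
Arl3, chr19:46573183-46573432, minus strand: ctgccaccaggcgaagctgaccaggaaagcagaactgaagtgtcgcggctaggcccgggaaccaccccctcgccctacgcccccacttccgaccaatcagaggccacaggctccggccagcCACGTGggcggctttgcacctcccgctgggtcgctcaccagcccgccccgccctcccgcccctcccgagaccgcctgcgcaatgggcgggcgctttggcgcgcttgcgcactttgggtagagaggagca
The Arl2bp window lies inside the annotated gene, upstream of the start of 1 of its 2 RefSeq transcripts. The bases before the first base of the Arl2bp gene were not searched. The E-box occurred once in the Arl2 window, with its first base 68 bases before the start, and once in the Arl3 window, 129 bases before the start, but not in the Arl2bp window. Among 32851 mouse promoter windows of the same length, 6.02% held an E-box on either strand. These windows were not matched for their share of G and C bases. That share was 62.8% in the Arl2bp window, 64.4% in that of Arl2 and 70.0% in that of Arl3. The other motifs searched on both strands were TTANGTAA (D-box, in 2.06% of windows), AGGTCA (bound by ROR receptors, in 14.0%) and TTCNNNGAA (STAT, in 7.02%), and none of these letters occurred in the 3 windows. A match of letters is a description and shows no binding.

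Expression is given on the log2 scale relative to the median of each probe set over the 8 arrays, as the deposited values are centred, so the level of one gene cannot be set against that of another. Arl2bp was the member with by far the larger difference. For probe set 1417112_at of Arl2bp, the immunized samples 1 to 5 had values of -1.35, -1.41, -1.39, -1.47 and 1.57, against 1.35, 1.80 and 1.70 in the naive samples 1 to 3. Immunized replicates 1 to 4 lay close together and far below all naive samples, while immunized replicate 5 lay above naive replicate 1, so the groups overlapped. The difference was -2.43 ± 0.65 (limma SE, 5 immunized against 3 naive samples), with group SDs of 1.33 in immunized and 0.24 in naive samples.

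The second Arl2bp probe set, 1429859_a_at, likewise had immunized replicates 1 to 4 far below the naive samples. Its values were -1.18, -0.84, -0.99, -1.02 and 0.84 in immunized samples 1 to 5, against 1.21, 1.96 and 2.01 in the naive samples. Here immunized replicate 5 lay below all naive samples, so the groups did not overlap, but it stood 1.68 above the next immunized sample. The difference was -2.36 ± 0.44 (SE). With both probe sets averaged, Arl2bp in immunized discs was at 0.190-fold the naive level, a log2 difference of -2.39 ± 0.54 (SE). Without immunized replicate 5 that difference was -2.88, and with any other single sample left out it lay between -2.59 and -2.26. The difference of the group medians, on which a single sample has less weight, was -3.05.

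**Figure D1:**
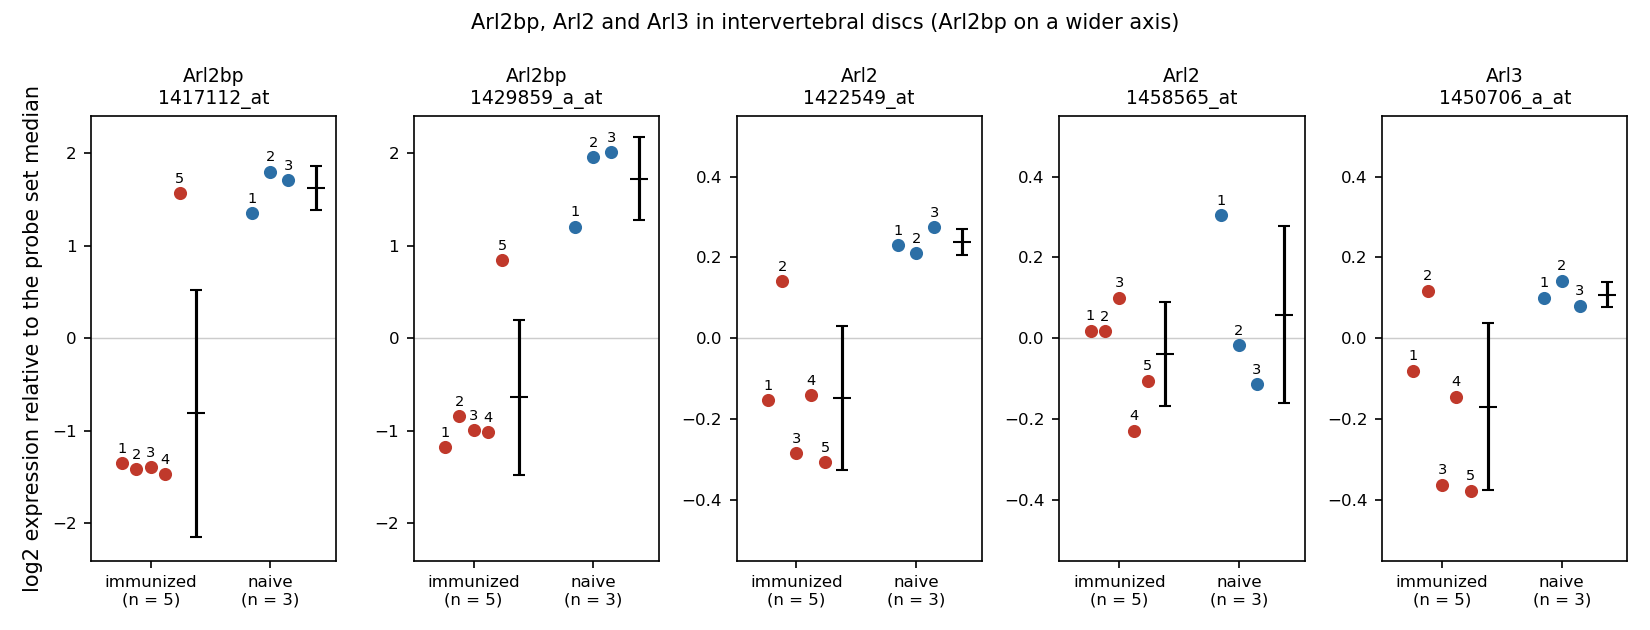
Log2 expression relative to the probe set median (vertical axis) of the 5 probe sets of Arl2bp, Arl2 and Arl3, with each point an immunized or naive sample numbered by its replicate and with bars for the mean ± SD (n = 5 and 3). Immunized replicate 5 (1.57 and 0.84) is the highest immunized sample in Arl2bp, lying among the naive samples only in 1417112_at, whereas in 1422549_at of Arl2 and in Arl3 it is the lowest sample, and the Arl2bp panels have a wider axis.

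Arl2bp stood out from other probe sets in the SD of the immunized samples, because immunized replicate 5 lay far from the others. In 1417112_at immunized replicates 1 to 4 lay between -1.47 and -1.35. The SD among the 5 immunized samples ranked 32nd for 1417112_at and 176th for 1429859_a_at among 45037 probe sets, counted from the largest. To see where each immunized sample lay, it was left out of the fit, and the probe sets that passed an adjusted p of 0.05 without it were counted by whether it was nearer to the naive mean than to the mean of the other immunized samples, a count added after the data were seen. For immunized replicate 5 this was so in 47 of 721 probe sets (6.52%), both of Arl2bp among them. For immunized replicate 2 it was so in 2802 of 5299 (52.9%), and Arl2bp was nonetheless at its low level in that sample. For immunized replicates 1, 3 and 4 it was so in 0 of 294, 34 of 968 and 140 of 1240 probe sets.

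Arl2, the GTPase after which ARL2BP is named, was somewhat lower in immunized discs in 1 of its 2 probe sets. In 1422549_at the immunized samples 1 to 5 had -0.15, 0.14, -0.28, -0.14 and -0.31, against 0.23, 0.21 and 0.27 in the naive samples. All immunized samples lay below all naive samples, with immunized replicates 3 and 5 lowest and immunized replicate 2 near the naive values. The difference was -0.39 ± 0.11 (SE). The other probe set, 1458565_at, gave a smaller difference of -0.098 ± 0.12 (SE), which lay within the spread between samples. Its values were 0.018, 0.017, 0.10, -0.23 and -0.105 in immunized samples, against 0.30, -0.017 and -0.11 in naive samples, and the groups overlapped. The lowest array of 1422549_at was at 8 or more on the log2 scale and that of 1458565_at between 4 and 8, as read from the spacing of the printed values. The mean of both probe sets differed by -0.24 ± 0.090 (SE).

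Arl3, the ciliary member, was measured by a single probe set, 1450706_a_at. Its values in immunized samples 1 to 5 were -0.081, 0.12, -0.36, -0.14 and -0.38, against 0.10, 0.14 and 0.081 in the naive samples. Immunized replicates 3 and 5 were again lowest, and immunized replicate 2 lay among the naive samples, so the groups overlapped. The difference was -0.28 ± 0.12 (SE). Without naive replicate 1 and immunized replicates 3 and 5, called here the samples with high marrow genes, it was -0.15. The corresponding value of the Arl2 mean was also -0.15, and that of Arl2bp was -3.08. This setting was chosen after the data were seen. The samples left out had the highest means of a megakaryocyte marker list (0.38, 0.93 and 0.69). In an erythroid list, however, immunized replicate 1 was as high as immunized replicate 5 (both 0.20). In a neutrophil list naive replicate 1 (-0.084) lay below immunized replicates 1 (0.18) and 4 (0.023). The name thus rests on the megakaryocyte list.

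The sample order thus differed between Arl2bp and its partners. Immunized replicate 5 was the highest immunized sample for Arl2bp and the lowest for 1422549_at of Arl2 and for Arl3, and immunized replicate 2 was the highest for both of these. All 5 probe sets had a negative difference, relative to a median of -0.022 over all probe sets. In the fit over all 45037 probe sets, 1 of the 5 passed an adjusted p of 0.05 as lower, against 2.89% of all probe sets, and 0 passed as higher, against 3.3% (6.19% in either direction). The groups did not overlap, with immunized samples lower, in 2 of the 5 member probe sets and in 11.4% of all. Since Arl2bp was chosen on this contrast, nothing is read from these counts.

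The genes whose sample pattern was most like that of Arl2bp were sought by Pearson's r over the 8 arrays among 2996 genes with a range of at least 1. These arrays share the group difference, so r is a description. The 5 highest were Syt9 (0.92), a synaptotagmin of vesicle release, the zinc finger gene Zfp979 (0.91), the Wnt co-receptor gene Lrp5 (0.89), Crip3 (0.88), and Arhgap19 (0.88). Zfp979 had -0.85, -0.60, -0.31, -0.58 and 2.12 in immunized samples 1 to 5, against 0.31, 2.12 and 1.73 in naive samples, so immunized replicate 5 was as high as the highest naive sample. The only probe set of Zfp979 had an array below 4 (log2). Arhgap19 was likewise highest in immunized replicate 5 (0.89, against -0.53 to -0.28 in the other immunized samples and 0.29 to 0.53 in naive samples). Crip3 had immunized replicate 5 at 0.42, within the naive range of 0.24 to 1.19, and the other immunized samples at -0.57 to -0.24. In Syt9 and Lrp5 immunized replicate 5 had 0.10 and 0.021 and lay below the naive samples (0.44 to 0.67 and 0.44 to 0.52).

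By the mean absolute difference over the 8 arrays, the nearest genes were Dbp (0.55), a circadian transcription factor, Zfp979 (0.59) and Cilp2 (0.62), a cartilage matrix protein. In Dbp immunized replicate 5 had -0.12, within the immunized range of -1.37 to 0.10 and below the naive range of 0.88 to 2.05. Cilp2 also had immunized replicate 5 (-0.13) below the naive samples (1.21 to 1.66). Arl2 and Arl3 were less like Arl2bp, with r of 0.45 and 0.34. The 5 genes by r depended on the measure, since Spearman's rank correlation kept 1 of them, probe set 1417112_at alone kept 4 and probe set 1429859_a_at alone kept 2.

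Closer than any probe set of a single gene were 4 probe sets that the annotation assigns to no single gene, a search made after the values were seen. Among 9255 probe sets with a range of at least 1, those with the highest r to Arl2bp were 1442944_at (0.99), for which no gene is listed, and 1449445_x_at (0.98), 1449444_a_at (0.97) and 1419370_a_at (0.97). These last 3 are each annotated to both Mfap1a and Mfap1b and are assigned to neither. In 1442944_at the immunized samples 1 to 5 had -1.21, -1.32, -1.19, -1.14 and 1.14, against 1.36, 1.33 and 1.93 in naive samples. In 1419370_a_at they had -2.04, -2.02, -1.56, -2.51 and 2.10, against 1.64, 1.56 and 1.60. In all 4 probe sets immunized replicates 1 to 4 were low and immunized replicate 5 was far higher, as in Arl2bp. Immunized replicate 5 lay within or a little below the naive range, but above it in 1419370_a_at (2.10 against at most 1.64). The labels name the strain of all mice as BALB/c and no substrain or source, so whether mice of the 2 groups differed in origin was not tested, for these probe sets or for Arl2bp. The lowest array of 1442944_at was below 4 (log2), and that of 1449444_a_at was at 8 or more.

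**Figure D2:**
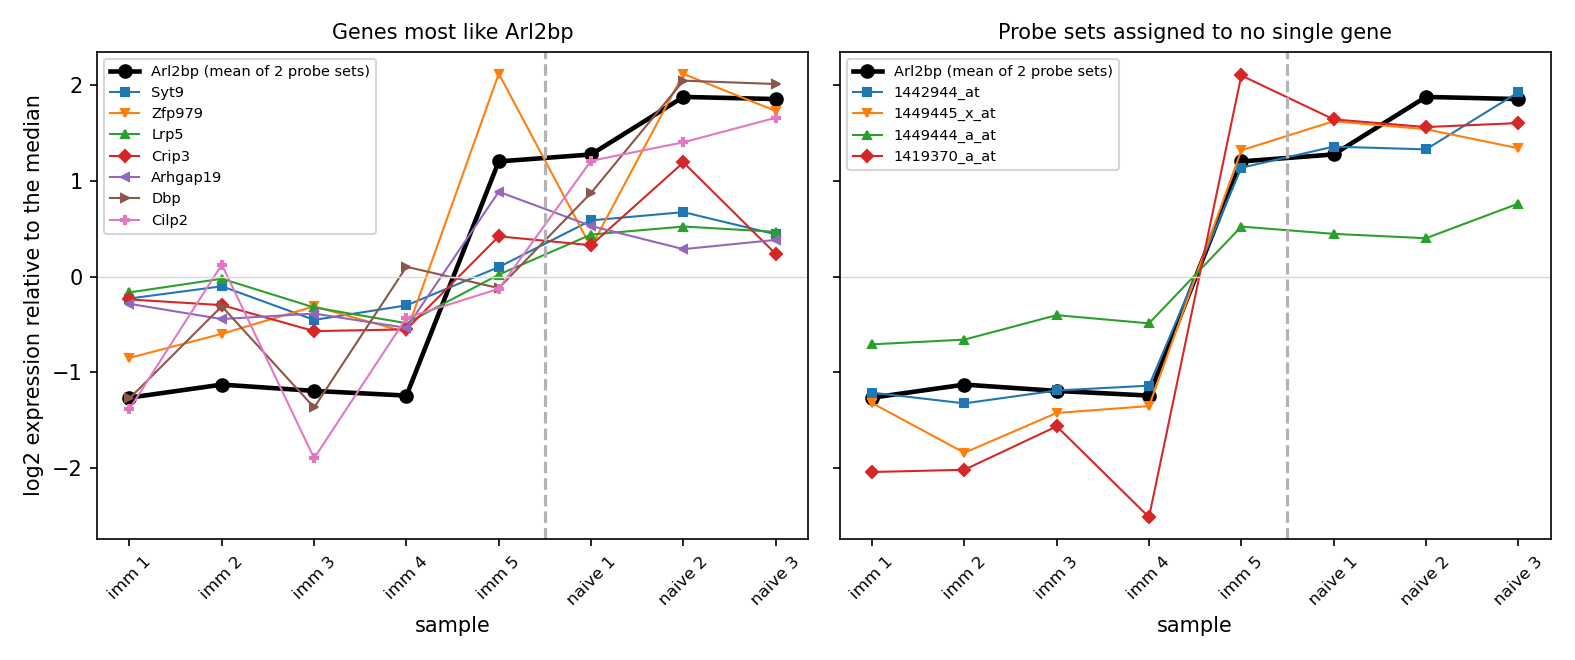
Log2 expression relative to the median (vertical axis) of Arl2bp in black and of the most similar genes (left) and of 4 probe sets with no single gene (right), by sample, with lines that only join the points of one gene. On the right immunized replicate 5 (imm 5) lies far above the other immunized samples in all 4 probe sets. It is within the naive range in 1449444_a_at, a little below it in 1442944_at and 1449445_x_at, and above it in 1419370_a_at. On the left only some genes have immunized replicate 5 far above the other immunized samples.

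Genes that neighbour Arl2bp on chromosome 8 were set beside it. The 3 measured protein-coding genes on each side were Cpne2, Psme3ip1 and Rspry1 before it and Pllp, Ccl22 and Cx3cl1 after it. Their differences between immunized and naive samples ranged from -0.36 ± 0.14 for Pllp, a myelin membrane protein, to 0.33 ± 0.18 (SE) for Cpne2. None passed in limma (adjusted p = 0.121 for Pllp, the lowest, which was the only one with an unadjusted p under 0.05). In Pllp, the next gene after Arl2bp, the groups did not overlap, and immunized replicate 5 had -0.046, within the immunized range of -0.49 to 0.010 and below the naive range of 0.018 to 0.41.

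The partners of ARL2 and ARL3 beyond the 3 genes were described from 7 lists with 73 genes, of which 58 were measured by a probe set that names them alone. With limma fitted to all genes, 2 of the 58 rose and 2 fell, a share of 6.90%, against 9.14% of all 18193 genes (4.46% higher and 4.68% lower). At an unadjusted p below 0.05 there were 6 higher and 8 lower, against 12.9% higher and 18.2% lower among all genes, and the shares of the 58 lay below these. The median difference was -0.049 over the 58 genes and -0.035 over all genes. The genes that passed were Rp2, Elmod3, Tbce and Ift46.

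Among 5 measured regulators of the GTPases, 1 rose and 1 fell. Rp2, which encodes the GTPase-activating protein of ARL3, rose by 1.22 ± 0.21 (SE; adjusted p = 0.0194 in limma, 5 immunized against 3 naive samples). Its values were 0.38, 0.037, 0.57, -0.037 and 0.33 in immunized samples, against -1.45, -0.87 and -0.57 in naive samples, and its 5 probe sets differed by 0.67 to 1.71. Every immunized sample lay above every naive sample, with naive replicate 1 lowest. Elmod3, of a family of GTPase-activating proteins for ARF-like GTPases, fell by 0.59 on the log2 scale (-0.59 ± 0.087 SE; adjusted p = 0.0140 in limma). It had -0.22, 0.071, -0.11, -0.14 and -0.071 in immunized samples, against 0.60, 0.48 and 0.42 in naive samples, and immunized replicate 5 lay with the other immunized samples. Its relatives Elmod2 (0.21 ± 0.078) and Elmod1 (0.17 ± 0.20) and Tbcd (-0.044 ± 0.14), a tubulin cofactor that binds ARL2, did not pass.

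Of 6 effectors and binding partners, 0 passed in limma (1 higher at an unadjusted p under 0.05). Cfap36, related in sequence to ARL2BP and a binder of ARL3, had the largest difference, 0.86 ± 0.33 (SE), with immunized samples at -0.0080 to 0.34, naive replicate 1 at -1.73 and the other naive samples at -0.25 and -0.066. The carriers of lipid-modified cargo differed by 0.29 ± 0.24 (Unc119), -0.078 ± 0.079 (Unc119b) and -0.075 ± 0.069 (Pde6d). Stat3, whose product ARL2BP holds in the nucleus, differed by 0.13 ± 0.078, and Slc25a4, a mitochondrial ATP carrier reported to bind ARL2BP, by 0.041 ± 0.20. The ciliary cargo genes Inpp5e (-0.13 ± 0.074) and Cys1 (-0.32 ± 0.12) did not pass.

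Of 5 genes listed as tubulin folding cofactors, Tbce rose (0.36 ± 0.084 SE; adjusted p = 0.0357 in limma). Tbca (0.22 ± 0.082), Tbccd1 (0.16 ± 0.095), Tbcb (0.11 ± 0.096) and Tbcc (-0.047 ± 0.079) did not pass. The list counted Tbccd1 and left out the cofactor Tbcd, given above with the regulators. Tbce had 0.054, 0.014, -0.0090, 0.0090 and 0.069 in immunized samples, against -0.50, -0.18 and -0.32 in naive samples, so the groups did not overlap. Among 5 mitochondrial fusion genes 0 passed (1 lower, unadjusted), with Miga2 at -0.29 ± 0.093, Opa1 at 0.30 ± 0.13, Miga1 at -0.093 ± 0.13 and Mfn1 at -0.055 ± 0.14. Among 7 measured ARF-like relatives 0 passed in limma (1 higher, unadjusted), led by Trim23 (0.28 ± 0.10), Arl15 (-0.16 ± 0.086), Arl14 (-0.27 ± 0.16) and Arl11 (-0.085 ± 0.088). The probe sets of Miga1 (-0.41 and 0.23) and of Trim23 (-0.041 to 0.45) disagreed in sign, as did those of Opa1 (-0.021 to 0.59), Unc119b (-0.20 to 0.15) and Tbcd (-0.14 to 0.049).

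Of 28 genes of intraflagellar transport and the primary cilium, Ift46, a subunit of the anterograde transport complex, fell (-0.54 ± 0.096 SE; adjusted p = 0.0209 in limma). It had -0.20, 0.027, -0.28, -0.027 and -0.22 in immunized samples, against 0.51, 0.36 and 0.33 in naive samples. Ift122 (-0.60 ± 0.16, adjusted p = 0.0543), Dync2li1 (-0.39 ± 0.13) and Nphp4 (-0.25 ± 0.091) did not pass. The median difference of the 28 genes was -0.22, with 18 negative and 10 positive, and 5 lower and 0 higher at an unadjusted p under 0.05, a share of lower genes near the 18.2% of all genes.

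These 4 calls depended on the samples and the model. All 4 were lost with the replicate number as a block, in which immunized replicates 4 and 5 do not bear on the difference. All 4 were also lost without both samples with joined numbers and without the samples with high marrow genes. Elmod3 and Tbce were lost as well with a trended, robust variance. In limma 0 of the 58 genes passed without naive replicate 2 (7 higher and 5 lower, unadjusted), 1 (Elmod3) without immunized replicate 1, 2 without naive replicate 1 or naive replicate 3, and 8 without immunized replicate 2. Rp2 was lost without immunized replicate 1 and without naive replicate 2, its adjusted p lying between 0.00134 and 0.129 over all settings, and Tbce passed in 1 of the 8 settings that left out 1 sample.

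**Figure D3:**
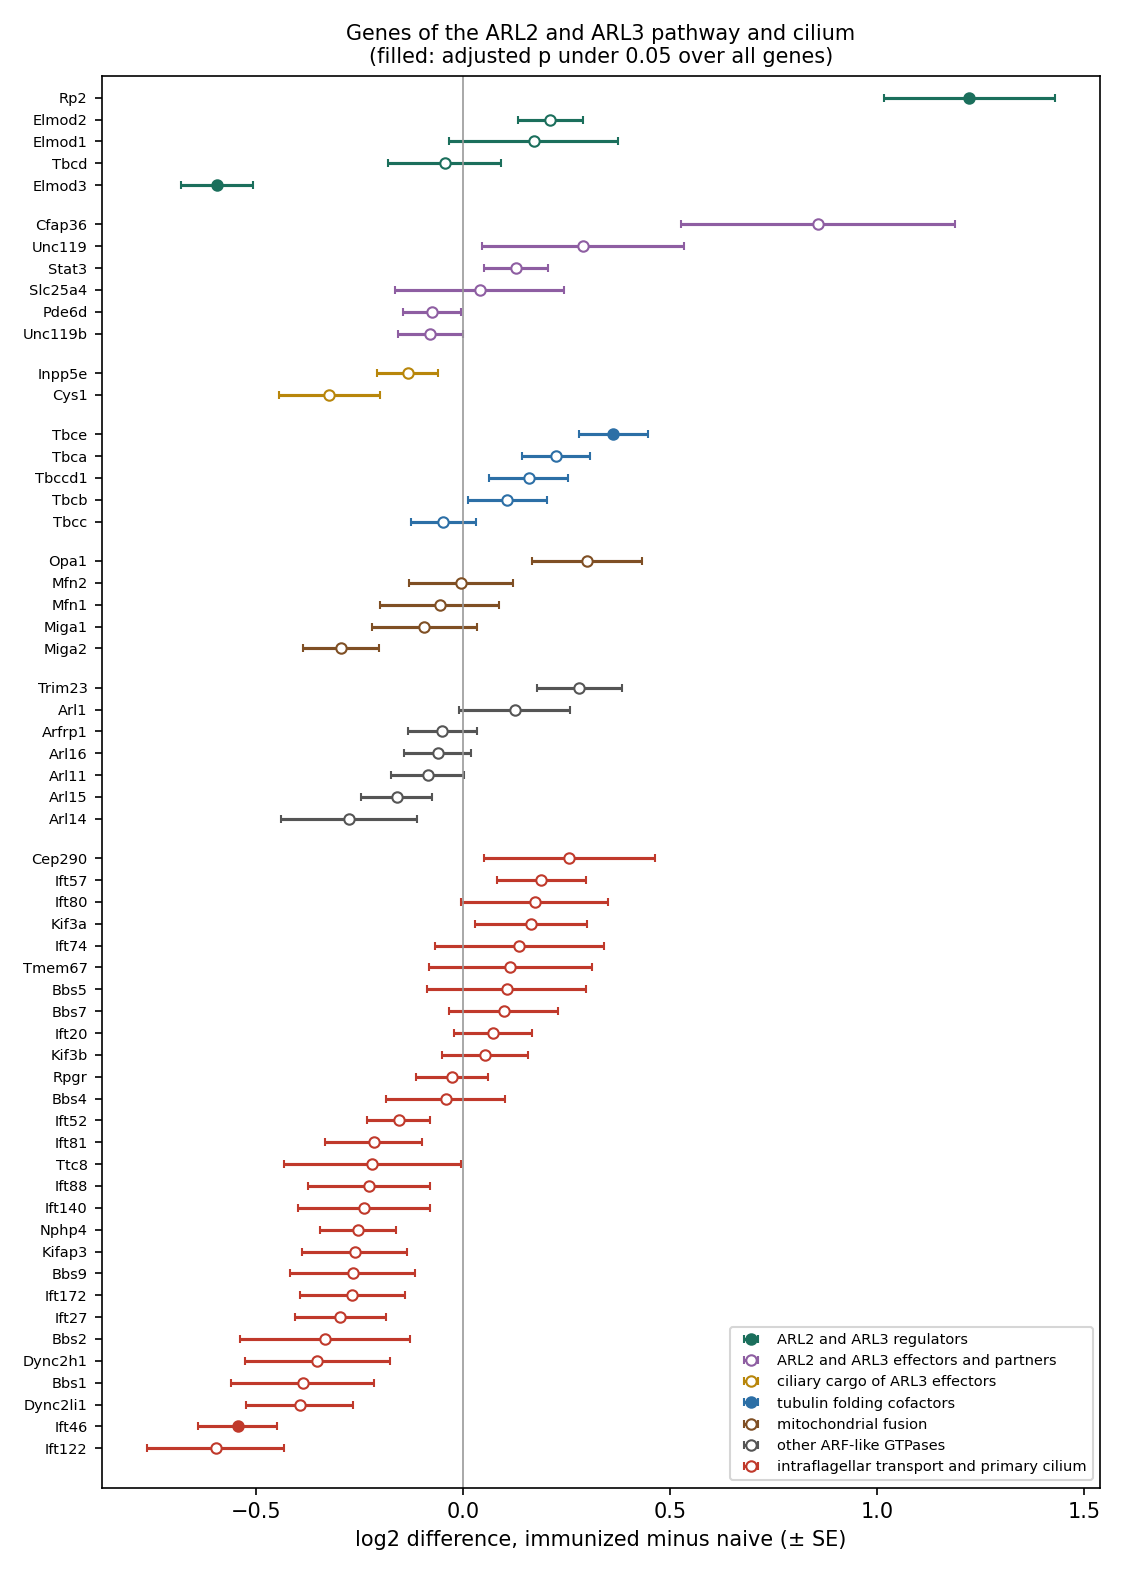
Log2 difference between immunized and naive samples (horizontal axis, points with ± SE) for 58 genes of 7 lists around ARL2 and ARL3, coloured by list, with filled points for an adjusted p under 0.05 over all genes. Rp2 (1.22) has the largest difference, followed by Cfap36 (0.86), whose SE bar overlaps that of Rp2, and Elmod3, Tbce and Ift46 are the other filled points.

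The discs expressed their defining markers in all samples, since every array of Acan and Col2a1 (cartilage) and of Krt8, Krt18 and Krt19 (nucleus pulposus) was at 8 or more on the log2 scale. Some cell type markers moved with the groups, and the counts stand against 4.46% higher and 4.68% lower calls among all genes. Of 7 macrophage markers 5 rose, with list means of -0.066 to 0.72 in immunized and -0.91 to -0.49 in naive samples. Of 12 chondrocyte markers 5 fell, with means of -0.95 to 0.28 in immunized and 0.37 to 0.69 in naive samples, and of 8 nucleus pulposus markers 1 fell (-0.82 to 0.36 against 0.40 to 0.58). Neutrophil markers, 2 of 8 of which rose, ranged from -0.11 to 0.47 in immunized and from -0.63 to -0.084 in naive samples. In each of the T cell, B and plasma cell and cell cycle lists 1 gene rose, and 1 of 5 osteoblast markers fell. In the other 7 lists (fibroblast and annulus, erythroid, megakaryocyte, skeletal muscle, Schwann cell, adipocyte and endothelium) limma called 0 genes, with 1 higher (endothelium) and 1 lower (Schwann cell) at an unadjusted p under 0.05. Since the values are centred, markers at 0 cannot be read.

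For immunized replicate 5, which alone had a high Arl2bp level among immunized samples, these means lay on the immunized side. It had 0.19 for macrophages, -0.50 for chondrocytes, 0.47 for neutrophils and -0.82 for the nucleus pulposus, the last being the lowest of all samples. Immunized replicates 3 and 5, lowest in Arl3 and in 1422549_at of Arl2, had the highest megakaryocyte (0.93 and 0.69) and cell cycle (0.84 and 0.51) means, and immunized replicate 2, highest in both, had the highest chondrocyte mean of the immunized samples (0.28). The part of these cell types in the differences of the 3 genes was not tested.

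**Figure D4:**
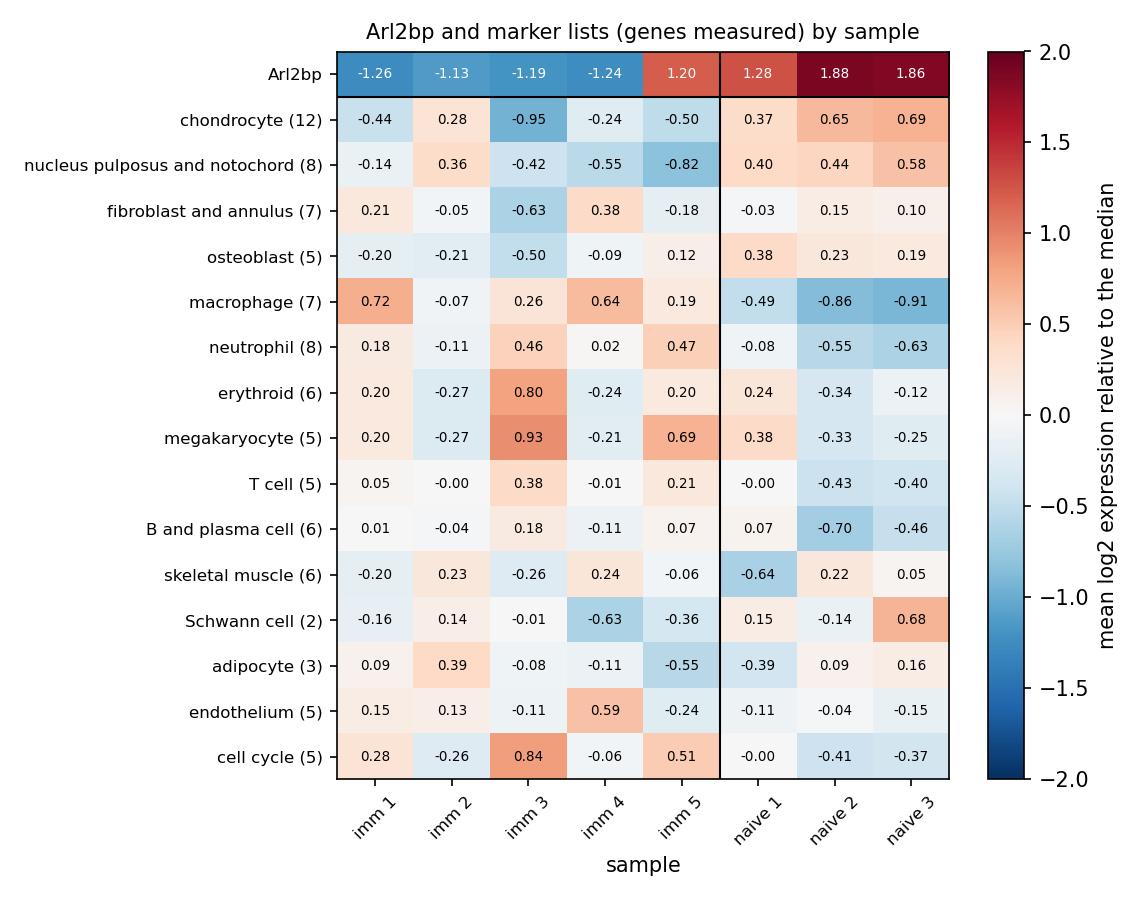
Mean log2 expression relative to the median (colour and printed value) of Arl2bp and of 15 marker lists (rows, with the number of genes measured) in each immunized and naive sample (columns). Immunized replicate 5 (imm 5) has the naive-like value of 1.20 for Arl2bp, while its macrophage (0.19) and chondrocyte (-0.50) means lie on the side of the immunized samples.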

How the data were processed

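Total RNA of pooled discs was labelled with biotin from 2 to 5 µg and hybridized to Affymetrix arrays, per the labels' protocols. The submitters' processing notes name RMA (robust multi-array average), which corrects background, applies quantile normalization and summarises probes; no version was given in the sources used here. The deposited values are taken as log2, the scale RMA returns. In the table every probe set has a median of 0 over the 8 arrays (within 5.0e-07), so levels are lost, apart from a coarse class read from the spacing of the values. Array medians lay between -0.012 and 0.016, and precision is limited by having 8 arrays.

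Probe sets were named through the platform annotation and RefSeq gene identifiers (162 symbols without a match were kept). The 64 array controls were left out. Groups came from the sample titles. Limma 3.58.1 (R 4.3.3; lmFit, eBayes, two-sided) was fitted to all 45037 probe sets and to the means of the probe sets naming each of 18193 genes alone, with Benjamini-Hochberg adjustment over each table, a threshold of 0.05 and no covariate. The gene fit and the likeness ranking were tested on simulated data. Members and lists were chosen with earlier results of these data known. Named are all members, all regulators and effectors, up to 4 genes of each further list by moderated t and all that passed. Tbcc, the remaining gene of its list, is named as well. Also named are the 5 genes nearest to Arl2bp by r and 3 by distance (provisional names passed over), and 3 neighbours on each side. Proteins and 15 listed genes were not analysed here. Alternatives were other normalizations, variance models, weights, a block, probe set choices, thresholds and samples left out.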

Additional observations from a re-analysis of the deposited data

Results flagged for a closer look

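Several values were flagged because 1 of the 5 immunized samples lay far from the other 4, by Dixon's 95% criterion. Chance alone flags about 1 in 20 groups, and 8 of 95 items were flagged here. The items were the 5 member probe sets, 71 other genes as means of their probe sets, 4 probe sets of no single gene and 15 marker list means. Taken singly, 4 of 116 probe sets of pathway genes also passed the criterion, in immunized replicates 1, 2, 3 and 5. In each of the 8 items it was immunized replicate 5 that lay high. For Arl2bp it had 1.57 in probe set 1417112_at and 0.84 in 1429859_a_at. For the genes most like Arl2bp it had 2.12 in Zfp979 and 0.89 in Arhgap19, and for the probe sets assigned to no single gene 1.14 in 1442944_at, 1.32 in 1449445_x_at, 0.52 in 1449444_a_at and 2.10 in 1419370_a_at. The last 6 items were selected for their likeness to Arl2bp, so they are not separate evidence.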

How the results depend on the processing

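The difference of Arl2bp was negative in all 21 alternatives, from -3.08 to -2.17, that of Arl2 in 21 (-0.39 to -0.098) and that of Arl3 in 19 (-0.35 to -0.15). These differences could not change with a trended, robust variance, the median of probe sets or the omission of low or _x_at and _s_at probe sets. With 1 sample left out they ranged from -2.88 to -2.26 for Arl2bp, -0.29 to -0.18 for Arl2 and -0.35 to -0.23 for Arl3. Arl2 moved by more than the spread between samples with 1422549_at (-0.39) or 1458565_at (-0.098) alone. Of 58 pathway genes, limma called 2 with a trended, robust variance, 21 with array weights, 0 without both samples with joined numbers (6 higher and 6 lower, unadjusted), 0 without the samples with high marrow genes (3 and 7; chosen after the data were seen) and 0 to 8 with 1 sample left out, against 4.

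Over all probe sets 2787 were called, but 1422 after quantile normalization of the centred values and 10150 with array weights. Limma called 4 without both samples with joined numbers and 544 without the samples with high marrow genes. It called 114 at an adjusted p under 0.01, 6991 under 0.10, and 123 to 5299 with 1 sample left out. Over all genes 1663 were called, and in the same settings 910, 5900, 0 (1621 higher and 2173 lower, unadjusted), 218, 54, 3783 and 21 to 3003. Higher calls were 53.3% of called probe sets, 64.6% after quantile normalization, 46.3% with array weights, 83.5% with the replicate block and 76.3% without the samples with high marrow genes, and were 48.8% of called genes, or 59.5% after quantile normalization, so neither direction prevailed throughout. The cause of these changes was not tested. Deviations of same-numbered samples from their group means correlated at -0.047, 0.24 and -0.10, and samples did not all correlate best with their own number. Deviations within so small a group depend on each other, so these values cannot decide whether replicate numbers pair the samples. With the replicate number as a block 91 probe sets, 7 genes and 0 pathway genes (4 higher and 5 lower, unadjusted) were called. Arl2bp then differed by -2.86, Arl2 by -0.18 and Arl3 by -0.22. No naive sample shares the numbers of immunized replicates 4 and 5, so these 2 samples did not bear on the differences in this setting. The value of -2.86 for Arl2bp thus leaves out immunized replicate 5, where Arl2bp was high.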
